A study of Mus musculus with 2 samples.

Results

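The 36 genes described here encode the machinery of cell division: the D cyclins and their kinases, the E2F and retinoblastoma (pocket) proteins, the E, A and B cyclins with their kinases, the factors that license and copy DNA, and proteins of mitosis. They were listed by name for their known roles, with earlier results of these data in view, and all 36 were found among the 21827 protein-coding genes of the GENCODE annotation. EP300, a coactivator that acetylates histones and other proteins, was mapped on chromatin by ChIP-seq (sequencing of DNA pulled down with an antibody) in lung tissue of B6NCrl mice at 0 days after birth. There were 2 libraries of 1 group, so there was no control group and no comparison between conditions. The labels call both libraries biological replicates, but both carry the same donor and biosample record. Whether they came from separate animals or pools could not be told, and the spread between them may therefore be technical. The sex was not collected.

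Dividing cells pass from one phase to the next through waves of cyclin synthesis. D cyclins accumulate in response to growth signals and, with CDK4 or CDK6, phosphorylate the retinoblastoma protein, which releases E2F factors to switch on genes of DNA replication. Genes of mitosis are transcribed later in the cycle, and many of their promoters carry CCAAT boxes and a cell cycle homology region (CHR) bound by the DREAM complex. The lung of a newborn mouse still grows and forms alveoli, so it holds dividing cells of several types beside resting ones.

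A promoter peak was a peak whose summit lay within 1 kb of a start site of a protein-coding transcript, and a peak was assigned to the gene with the nearest such start site within 100 kb. The nearest gene is not a measured link. Unless a library is named, counts refer to the optimal set of 43988 reproducible peaks (build mm10), and signal values are those the authors gave each peak. In whole tissue, fewer cells of a type and less EP300 per cell cannot be told apart, and a peak says nothing of how strongly a gene was transcribed. As a check of the tissue label, 9 of 12 marker genes of lung epithelium and endothelium had a promoter peak and 12 of 12 had an assigned peak, against 0 and 4 of 6 markers of other organs.

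Sequences of 5 EP300 peaks are shown as examples. They are the strongest promoter peak and the strongest assigned peak of the D cyclins, and promoter peaks of a kinase and a replication gene. The last is the strongest promoter peak of the mitosis genes. They do not stand for their groups: the Bub1 promoter peak, for example, had no CHR or CCAAT match. Each is the plus strand of mm10, taken from the 200 bases around the summit without bases annotated as untranslated. For the Ccnd3 promoter peak this removed the summit itself, at chr17:47505089, and left the 62 bases shown. Capitals mark matches, on either strand, to the GC box (GGGCGG), the CCAAT box (CCAAT), the CHR (TTTGAA or TTCGAA) and the glucocorticoid response element (GRE). The searched motifs do not contain each other's letters.
Ccnd3 promoter peak, chr17:47504989-47505050: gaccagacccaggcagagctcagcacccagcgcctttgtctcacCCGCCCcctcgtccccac
Ccnd3 strongest assigned peak, chr17:47508048-47508247: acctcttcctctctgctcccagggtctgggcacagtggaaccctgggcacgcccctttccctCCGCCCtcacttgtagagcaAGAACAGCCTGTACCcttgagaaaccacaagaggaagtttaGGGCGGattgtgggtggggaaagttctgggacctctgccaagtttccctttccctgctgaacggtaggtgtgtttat
Cdk1 promoter peak, chr10:69352970-69353169: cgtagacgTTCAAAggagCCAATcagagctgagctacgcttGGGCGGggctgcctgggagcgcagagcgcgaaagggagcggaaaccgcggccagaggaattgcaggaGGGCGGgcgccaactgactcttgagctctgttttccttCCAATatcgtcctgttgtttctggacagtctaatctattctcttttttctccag
Mcm3 promoter peak, chr1:20820453-20820652: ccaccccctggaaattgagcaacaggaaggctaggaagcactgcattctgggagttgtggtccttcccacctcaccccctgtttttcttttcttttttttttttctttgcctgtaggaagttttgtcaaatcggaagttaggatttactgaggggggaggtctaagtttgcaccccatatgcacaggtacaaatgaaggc
Top2a promoter peak, chr11:99024192-99024391: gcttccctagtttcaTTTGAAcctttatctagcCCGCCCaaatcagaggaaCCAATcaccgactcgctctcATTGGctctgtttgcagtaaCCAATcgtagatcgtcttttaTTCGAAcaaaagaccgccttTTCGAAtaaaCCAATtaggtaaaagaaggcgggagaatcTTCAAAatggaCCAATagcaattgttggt

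EP300 peaks stood at the start sites of 11 of the 36 genes (30.6%), against 20.5% of all protein-coding genes. These 11 were Ccnd3, Cdk1, Cdk2, Ccna2, E2f3, Mcm3, Mcm4, Mcm7, Cdc6, Top2a and Bub1. A second comparison used genes with CpG counts in the range of these genes. Start-site sequences were matched for 28 of the 36 genes in the RefSeq table (GRCm38.p6, 250 bases before to 50 after the start). Their CpG count had a median of 25, against 15 for 16515 coding genes. Of the 28, 9 (32.1%) had a promoter peak, against 29.7% of 10597 genes within the same range of CpG counts, 8 to 48. That range is wide, and counts were not matched within it. The part of CpG content in the share of promoter peaks was not tested. At least 1 assigned peak was found for 21 of the 36 genes (58.3%), against 47.1% of all genes. An assigned peak over 1 kb from the start sites was found for 14 (38.9%), against 39.3%. The 36 genes had 70 assigned peaks, a mean of 1.94 ± 3.46 per gene (SD over genes), against 1.65 over all genes, and a median of 1 against 0.

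**Figure D1:**
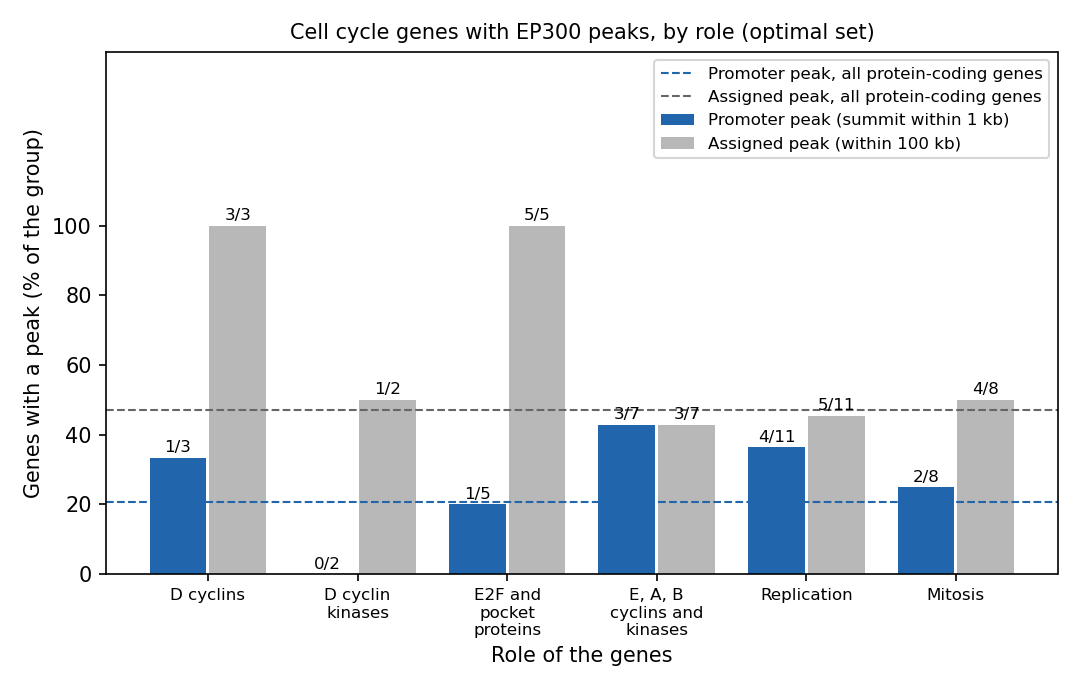
Percent of genes with an EP300 promoter peak (blue bars) and with an assigned peak (grey bars) in the optimal set, for 6 groups of cell cycle genes. Dashed lines give the same shares over all protein-coding genes, 20.5% and 47.1%. All 3 D cyclins and all 5 E2F and pocket protein genes had an assigned peak, while the promoter shares ran from 0 of 2 to 3 of 7.

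The D cyclin genes had more assigned peaks per gene than the replication or mitosis genes. Together, Ccnd1, Ccnd2 and Ccnd3 had 25 assigned peaks, a mean of 8.33 ± 8.74 per gene, against 0.727 ± 0.905 for the 11 replication genes and 1.75 ± 2.71 for the 8 mitosis genes (SD over genes). The order was the same in each library. Among the strongest 43988 peaks of each library, the D cyclins had a mean of 7.67 in replicate 1 and 7.67 in replicate 2, the replication genes 1.09 and 0.909, and the mitosis genes 1.63 and 1.25. The D cyclins differed widely among themselves, with 6, 1 and 18 peaks, so the SD over these genes was larger than the gap between the groups. The D cyclin mean rests on Ccnd3, without which it was 3.5. No test is given, because the design has 1 group and the genes are not replicates.

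The 3 D cyclins also differ from the other genes in the room around them. A gene's territory is the sequence within 100 kb that lies nearer to its start sites than to those of any other coding gene. The median territory was 112 kb for the D cyclins, 32.3 kb for the replication genes and 24.2 kb for the mitosis genes, against 47.5 kb over all genes. Per 100 kb of territory, the D cyclins had 7.50 peaks, the replication genes 1.83 and the mitosis genes 5.09, against 2.31 over all genes. The D cyclin value rested largely on Ccnd3, with 17.98 peaks per 100 kb. Ccnd1 had 5.34, close to the mitosis value, and Ccnd2 had 0.828, below that of all genes. The mitosis value rested largely on Aurkb, with 7 of the group's 14 peaks in a territory of 21.8 kb. Outside the D cyclins, Aurkb (32.09), E2f2 (22.27) and Cdk2 (19.96) had more peaks per 100 kb than Ccnd3. The Cdk2 value came from 1 peak in a territory of 5.01 kb. The part of territory size in the difference was not tested.

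**Figure D2:**
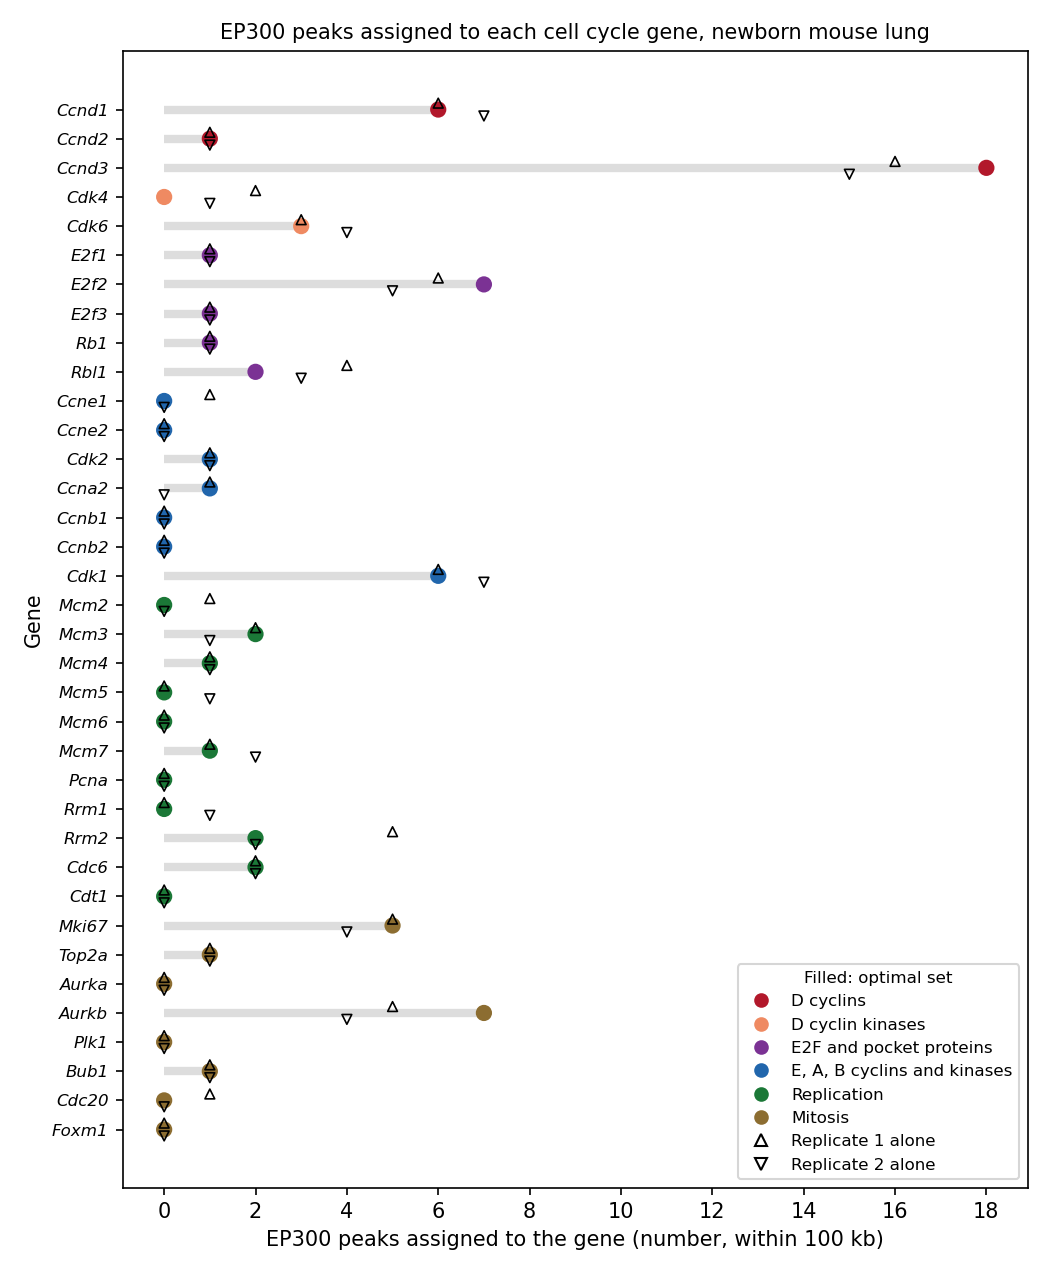
Number of EP300 peaks assigned to each of the 36 cell cycle genes. Filled points give the optimal set, upward triangles the strongest 43988 peaks of replicate 1 and downward triangles those of replicate 2. Ccnd3 stands apart at 18 peaks (16 and 15 in the libraries), and the others have 7 or fewer in the optimal set.

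Ccnd3, the D cyclin gene on chromosome 17 (chr17:47505051-47599691, plus strand), had 18 assigned peaks, and only 0.554% of all protein-coding genes had more. Replicate 1 alone gave 16 and replicate 2 alone 15. Of the 18 peaks, 15 had their summit in an intron of Ccnd3, 2 in untranslated sequence and 1 in intergenic sequence. The strongest peak near any of the 36 genes lay in an intron, 2999 bp downstream of the nearest start site, at chr17:47507996-47508322. Its signal value was 452, rank 26 of the optimal set. It was 222 (rank 52) in replicate 1 and 229 (rank 17) in replicate 2, so both libraries placed it among their strongest sites. The next assigned peaks were far weaker, at 90.6 (19.2 kb upstream of the nearest of 6 start sites) and 82.7 (2.26 kb downstream). The 200 bases around the strongest summit, printed above, held 1 GRE match and 2 GC boxes. GRE matches were present in 1.77% of all optimal peak windows of that length and in 1 of the 70 windows assigned to the 36 genes.

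Ccnd3 was the only D cyclin gene with promoter peaks, 5 in all, spread over start sites at both ends of the gene. Replicate 1 alone gave 3 and replicate 2 alone gave 5. The strongest, 30 bp upstream of a start site at the 5′ end of the gene, had a signal value of 70.6. Within 100 bp of that summit, the peak had a signal value of 53.7 in replicate 1 and 5.93 in replicate 2, and it was absent from the conservative set, so this site rested mainly on replicate 1. The other promoter peaks lay at start sites inside the gene, with signal values of 53.1, 40.3, 34.8 and 28.4. Among these, the peak at 28.4 was the most even between the libraries, at 16.1 and 18.6. The peak at 40.3 had no summit within 100 bp in either library's own list. With only the gene's 5′ end counted as a start site, Ccnd3 had 10 assigned peaks, still the most of the 36 genes.

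Ccnd1, the D cyclin gene on chromosome 7 (chr7:144929931-144939925, minus strand), had no promoter peak but 6 assigned peaks, all intergenic and upstream of its start site. The strongest, at chr7:145029593-145030016, lay 89.9 kb upstream with a signal value of 121 (70.7 in replicate 1 and 50.1 in replicate 2). The other peaks lay 24.3 kb (signal value 99.0), 57.3 kb (82.6), 85.8 kb (69.1), 33.8 kb (51.4) and 1.89 kb (40.1) upstream. All 6 were also in the conservative set, and the libraries alone gave 6 and 7. The nearest of them fell outside the 1 kb that defined a promoter. In the full lists of 300000 peaks per library, Ccnd1 had a weak peak within 1 kb in replicate 1 (signal value 7.70) and none in replicate 2. The count depends on how far peaks are assigned: 3 within 50 kb and 9 within 200 kb.

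Ccnd2, the D cyclin gene on chromosome 6 (chr6:127125162-127152193, minus strand), had 1 assigned peak and no promoter peak. It lay 11958 bp upstream in an intron of the noncoding gene 9330179D12Rik, with a signal value of 59.5 (45.6 in replicate 1 and 14.2 in replicate 2). Its territory of 121 kb was as wide as that of Ccnd1, 112 kb, so that the 3 D cyclins were not alike: Ccnd3 had many peaks inside the gene, Ccnd1 had peaks far upstream, and Ccnd2 had 1. When start sites of all GENCODE genes were used, the Ccnd2 peak went to another gene and its count was 0.

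**Figure D3:**
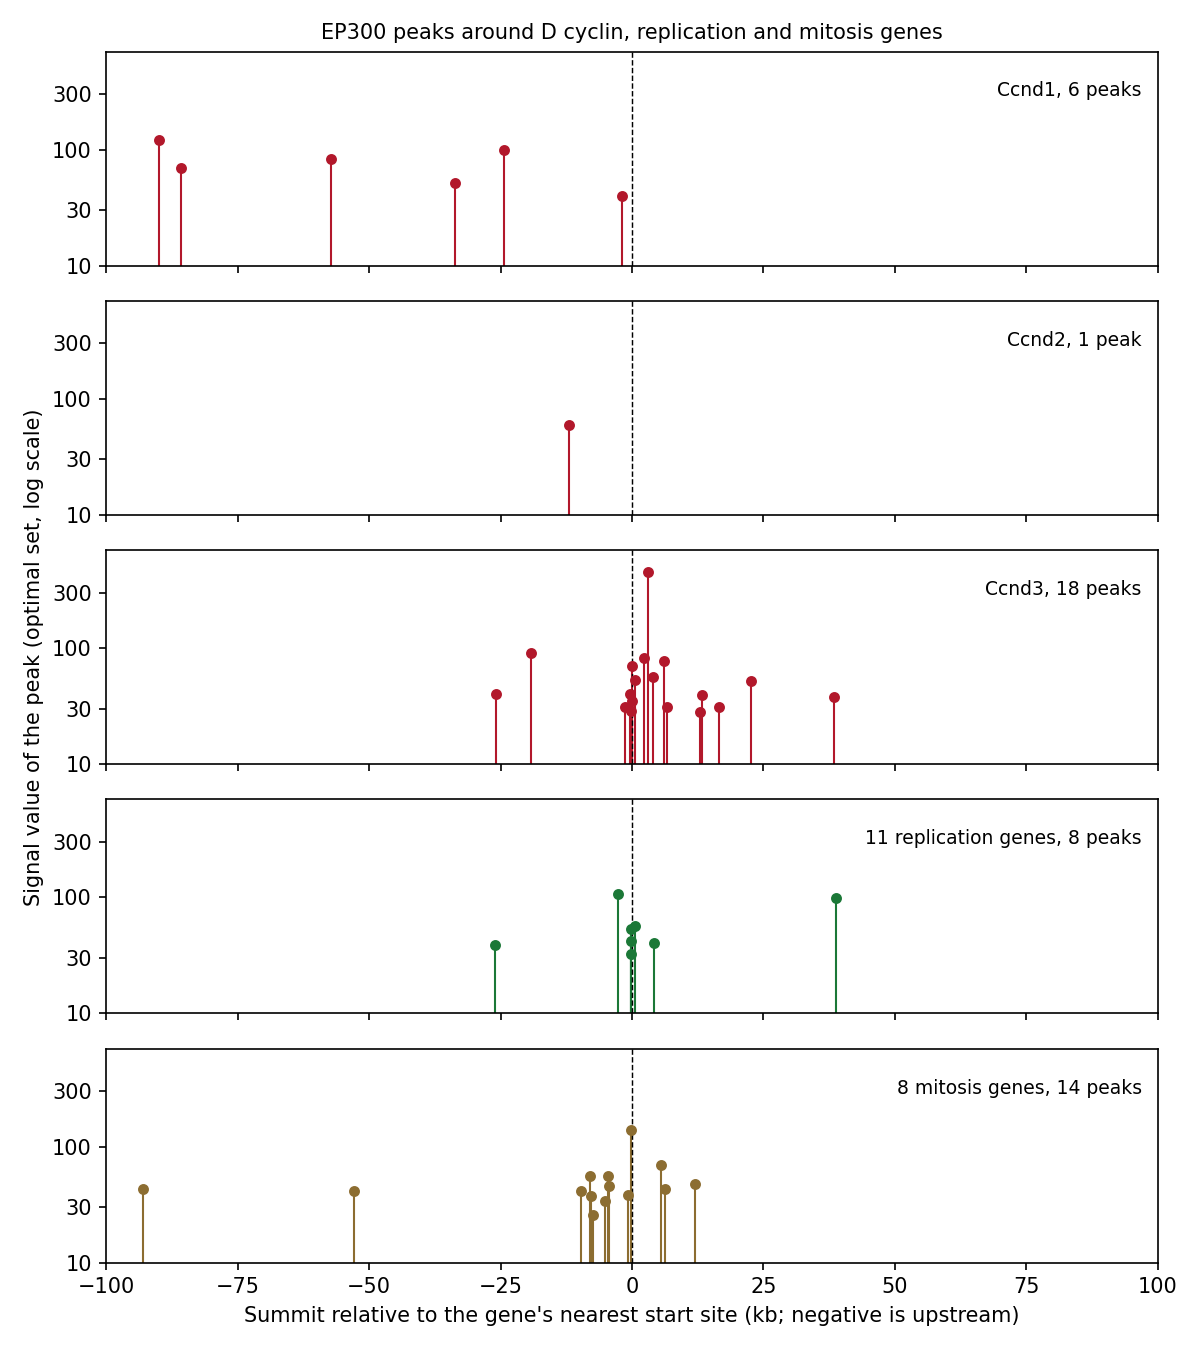
Each line is an assigned EP300 peak, placed by its summit's distance in kb from the gene's nearest start site (negative values are upstream) and by its signal value in the optimal set on a log axis. Ccnd1 has 6 peaks upstream only, Ccnd2 has 1, and Ccnd3 has 18 on both sides of its start sites with the strongest at 452. The 11 replication genes share 8 peaks and the 8 mitosis genes 14.

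Of the kinases that pair with D cyclins, only Cdk6 had assigned peaks in the optimal set. Cdk6 had 3 assigned peaks, the strongest with a signal value of 55.8 in its own intron, 42.4 kb downstream of the start site, and none at its promoter. With the start sites of all transcripts of coding genes, Cdk6 had 8 assigned peaks, and in that setting only Ccnd3 had more. Cdk4 had no assigned peak in the optimal set. In the libraries' own lists Cdk4 had a peak within 1 kb with signal values of 24.3 in replicate 1 (rank 27652) and 17.96 in replicate 2 (rank 29176). These values were as high as those of Mcm4 (23.9 and 17.4) and Cdk1 (21.1 and 16.2), which were in the optimal set. Cdk4 was the only one of the 36 genes with a promoter peak among the strongest 43988 of both libraries that had none in the optimal set.

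All 5 genes of the E2F and pocket protein group had an assigned peak, 12 in all, where 47.1% of all genes had one. E2f3 alone had a promoter peak, and 1 of 5 is near the 20.5% of all genes. E2f2, an activating E2F, had 7 assigned peaks, 5.04% of genes having more. They lay in the introns of E2f2 between 5.04 and 14.9 kb downstream of the start site. The 3 strongest had signal values of 108, 98.0 and 97.2, and each was similar in the libraries (55.2 and 51.2 for the strongest, in replicates 1 and 2). The conservative set held only 4 assigned peaks for E2f2. E2f3 had a promoter peak with a signal value of 46.5 (23.6 and 19.6), 212 bp downstream of its start site. Rbl1, which encodes the pocket protein p107, had 2 peaks in its introns (92.3 and 40.2). Replicate 1 alone gave Rbl1 4 peaks, and with start sites of all GENCODE genes it had 0. Rb1, the retinoblastoma gene, and E2f1 had 1 intronic peak each (32.8 and 42.6), both between 1 and 2 kb from a start site. The Rb1 peak was absent from the conservative set.

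Among the E, A and B cyclins and their kinases, 3 of 7 had a promoter peak (42.9%, against 20.5% of all genes). These were Cdk2, Ccna2 and Cdk1. Cdk2, the partner of cyclins E and A, had a peak of signal value 52.5 (27.6 in replicate 1 and 23.7 in replicate 2), which also lay within 1 kb of a start site of Pmel. Ccna2, cyclin A, had a peak of 45.0 (25.9 and 13.4) that was also in the conservative set. In replicate 2 it had rank 44114, just outside the strongest 43988. Cdk1, the kinase of mitotic entry, had a promoter peak of 41.8 (21.1 and 16.2), and the sequence printed above held a CHR, 2 CCAAT boxes and 2 GC boxes. It had 5 further peaks, intergenic and from 17893 to 50026 bp downstream of its start site, the strongest at 56.6. With start sites of all GENCODE genes, Cdk1 had 3 assigned peaks in place of 6. The cyclin genes Ccne1, Ccne2, Ccnb1 and Ccnb2 had no assigned peak. Ccne1 was the only one of the 36 genes with no peak within 1 kb in the full list of either library or of the pooled libraries, which held for 36.7% of all protein-coding genes.

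EP300 was found at the start sites of 4 of the 11 replication genes (36.4%, against 20.5% of all genes): Mcm3, Mcm4, Mcm7 and Cdc6. Mcm genes encode the subunits of the replicative helicase that is loaded at origins, and CDC6 and CDT1 load it. Mcm7 had 2 promoter peaks with signal values of 56.0 and 46.4, and both lay within 1 kb of a start site of Ap4m1, the neighbouring gene. The stronger had a value of 22.9 in replicate 1 and 36.8 in replicate 2, the weaker 30.7 and 13.8, so that the libraries ordered them differently. Mcm3 had a peak of 53.7 (22.8 and 30.4), 241 bp upstream, and the sequence printed above had none of the searched motifs. Mcm4 had a peak of 42.4 (23.9 and 17.4), shared with the start site of Prkdc. Cdc6 had a weak promoter peak of 32.6 (23.4 and 9.13). That peak was absent from the conservative set, which held 1 promoter peak of Cdc6 with other coordinates. A stronger assigned peak of 107 (58.0 and 49.3) lay 2.62 kb upstream of Cdc6, outside the promoter limit.

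An assigned peak was found for 5 of the 11 replication genes (45.5%), near the 47.1% of all genes. Mcm2, Mcm5, Mcm6, Pcna (the sliding clamp), Rrm1 (a ribonucleotide reductase subunit) and Cdt1 had no assigned peak. Rrm2, the other ribonucleotide reductase subunit, had 2 peaks and none at its promoter, the stronger with a signal value of 97.9 (53.8 and 48.5) lying 38.8 kb downstream of its start site. Replicate 1 alone gave Rrm2 5 assigned peaks and replicate 2 alone 2. The 11 genes had 4 assigned peaks over 1 kb away (7 in replicate 1 alone and 4 in replicate 2 alone), against 20 for the 3 D cyclins (20 and 18). Mcm5 had a peak of 18.5 in replicate 2 with no counterpart within 1 kb in the full list of replicate 1.

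Of the 8 mitosis genes, Top2a and Bub1 had a promoter peak (25%, near the 20.5% of all genes). Top2a, which encodes the topoisomerase that disentangles chromosomes, had the strongest promoter peak of the 36 genes, with a signal value of 138, rank 3100 of the optimal set. It stood at 81.3 (rank 2887) in replicate 1 and 59.6 (rank 3272) in replicate 2, 103 bp upstream of the start site. The 200 bases printed above held 5 CCAAT boxes, 4 CHR matches and 1 GC box. Bub1, a spindle checkpoint kinase, had a peak of 38.0 (21.3 and 16.6), 839 bp upstream, so it lay outside a promoter limit of 500 bp. Each library alone gave a promoter peak at 4 of the 8 genes (50%). Over all genes the share was 23.0% in replicate 1 and 21.6% in replicate 2. The mitosis genes were Top2a and Bub1 in both, Cdc20 and Mki67 in replicate 1, and Aurka and Foxm1 in replicate 2. Foxm1, a transcription factor of mitotic genes, also had a promoter peak in the conservative set. The conservative set was not a subset of the optimal one, and 83.0% of its peaks were in the optimal set.

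Aurkb and Mki67 had most of the mitosis group's peaks, none of them at a promoter. Aurkb, a kinase of chromosome segregation, had 7 assigned peaks between 4.35 and 9.62 kb from its start sites, with signal values from 34.1 to 56.1. Some of these peaks overlapped, and counted once where they did they were 5. Replicate 2 alone gave 4, as did the optimal set with the start sites of all transcripts. The summit of 1 of them lay in an intron of the neighbouring gene Ctc1. Mki67, which encodes the proliferation marker Ki-67, had 5 assigned peaks, of which 2 were in its own coding sequence (68.9 and 47.7) and 3 lay upstream. Of the upstream peaks, 2 were in introns of Gm36431, and with start sites of all GENCODE genes Mki67 had 1 assigned peak. Aurka, Plk1, Cdc20 and Foxm1 had no assigned peak.

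At the start sites, the libraries gave like but not identical lists. Replicate 1 alone had a promoter peak at 16 of the 36 genes (44.4%) and replicate 2 alone at 15 (41.7%). The shares over all genes were 23.0% and 21.6%. In both libraries together there were 11, or 30.6%, against 16.8% of all genes. Of these, 10 were in the optimal set. Ccna2, just past the limit at rank 44114 in replicate 2, was the member of the optimal 11 that lacked one, and Cdk4 took its place. In the full lists of 300000 peaks, 27 of the 36 genes (75%) had a peak within 1 kb in both libraries, against 43.8% of all genes. These lists include weak peaks: Ccnb2 had signal values of 8.05 and 7.96, and Rrm1 8.14 and 8.94. Over the 14 of 16 promoter peaks with a summit in both libraries, the median log2 ratio of replicate 1 to replicate 2 was 0.37 with an SD of 1.03, against 0.41 and an SD of 0.72 over all promoter peaks.

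**Figure D4:**
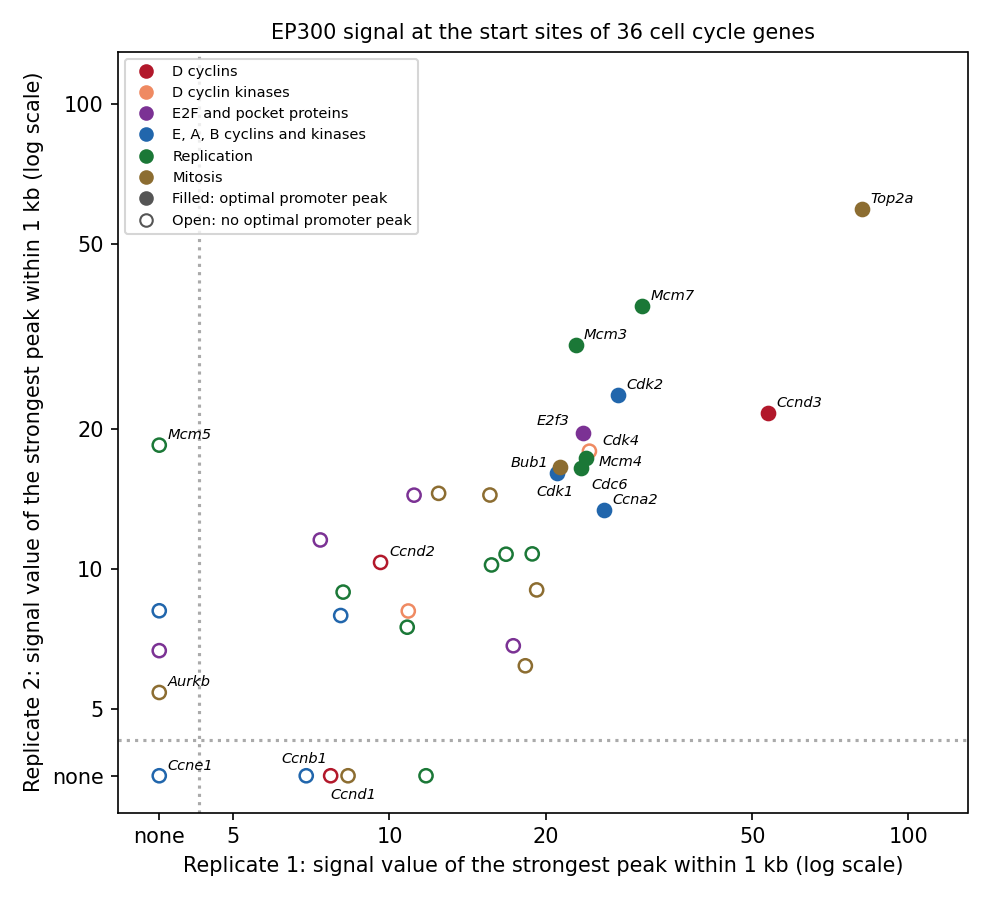
Signal value of the strongest EP300 peak within 1 kb of a start site of each of the 36 genes in the full list of replicate 1 (horizontal) and of replicate 2 (vertical), both on log axes. Points past the dotted lines have no such peak in that list. Genes with a promoter peak in the optimal set are filled and sit at the upper right with Top2a highest, and Cdk4 lies among them as an open point.

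Most promoter peaks of these genes lay upstream of the start sites, at distances that the 1 kb limit bounds. Of 16 pairs of a promoter peak and a gene, 12 were upstream of the nearest start site and 4 downstream, with a median distance of 236 bp, and 12 were within 300 bp. Without Ccnd3, 8 of 11 pairs were upstream and 8 were within 300 bp. These positions were not counted over all promoter peaks, so they cannot be called particular to these genes. Their median signal value was 45.7, against 44.8 for all promoter peaks. Of the 70 assigned peaks, 35 had their summit in an intron, 30 in intergenic sequence, 3 in untranslated and 2 in coding sequence. The same places were not counted over all optimal peaks.

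Start-site sequences with motifs of the cell cycle program were found both among genes with a promoter peak and among genes without one. Only the 28 genes in the RefSeq table could be searched. The 8 genes absent from it were Ccnd1, Ccnd2, Rb1, Ccne2, Ccna2, Mcm4, Aurkb and Foxm1. E2F matches (TTTCCCGC or TTTGGCGC) were present for 9 of the 28 matched genes, against 1.80% of all genes in the RefSeq table, coding or not. They were found at E2f2, E2f3, Cdk2, Mcm3, Mcm5, Mcm6, Mcm7, Cdc6 and Cdt1. CCAAT boxes were present for 21 of 28 (against 41.1%), CHR matches for 12 (against 21.7%) and GC boxes for 23 (against 38.2%). All 6 mitosis genes in the table, Mki67, Top2a, Aurka, Plk1, Bub1 and Cdc20, had both a CHR match and a CCAAT box. These genes are CpG-rich, and the part of base composition in the counts was not tested. Of the 9 genes with a promoter peak, 5 had an E2F match (55.6%), 5 a CHR match (55.6%) and 8 a CCAAT box (88.9%). Of the 19 genes without one, 4 had an E2F match (21.1%), 7 a CHR match (36.8%) and 13 a CCAAT box (68.4%). The shares were thus higher with a promoter peak, but the counts are small and the difference was not tested. Matches to AP-1 (TGACTCA) were present for 0 of 28 against 5.95%, and to TEAD (GGAATG) for 3 against 16.6%.

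Motifs were also counted under the peaks themselves, in the 200 bases around the summit. These windows are shorter than the start-site sequences above and cover other genes. E2F matches were found in 1 of the 16 promoter peaks of these genes, against 1.59% of all promoter peaks. CCAAT boxes were found in 6 of 16, against 26.1%, and GC boxes in 5, against 30.4%. CHR matches were found in 2 of 16, against 13.7% of all promoter peaks. These were the Cdk1 and Top2a peaks, both printed above. In the 55 assigned peaks over 1 kb away, AP-1 matches were found in 7 and TEAD matches in 10, against 10.8% and 20.4% of all optimal peaks outside promoters. The counts are small, and no test is given. The letters are matches in the reference genome, not measured sites of binding.

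The 68 other cell cycle genes gave shares like those of the 36. A promoter peak was found at 24 of them (35.3%, against 20.5% of all genes) and an assigned peak at 45 (66.2%, against 47.1%). The promoter shares of the CDK inhibitors (28.6%) and of the E2F-related list (20%) were near that of all genes. Among the CDK inhibitors, which block the cyclin kinases, 6 of 7 had an assigned peak and 2 had a promoter peak, and Cdkn1c and Cdkn1b had the most, 5 and 4. Of 15 other E2F, DREAM complex and Myc family genes, 10 had an assigned peak and 3 a promoter peak, with E2f6 (7) and E2f7 (5) leading. Of 27 other replication genes, 17 had an assigned peak and 11 a promoter peak, led by Cdc7 (10), the kinase that fires origins, and Dut (4). Of 19 other mitosis genes, 12 had an assigned peak and 8 a promoter peak, led by Wee1 (10), the kinase that restrains CDK1, and Pttg1 (5). The strongest peak assigned to Wee1 had a signal value of 247, above that of every peak of the 36 genes except the strongest at Ccnd3. No gene of either list other than Ccnd3 had more than 10 assigned peaks.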

How the data were processed

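EP300 ChIP-seq peak lists of 2 newborn lung libraries were analysed. Per notes deposited beside each library, reads were aligned to mm10, peaks were called per library and on the pooled libraries, and the authors derived conservative and optimal sets by the irreproducible discovery rate (IDR). Neither aligner nor peak caller, nor any version, is given in the sources used here. Signal values of peaks, as deposited by the authors with no scaling stated, served only to rank and describe peaks. The lists hold no read counts, so depth is unknown and no counting intervals are given. The summit was the peak start plus the peak offset, and 43972 optimal peaks on 21 chromosomes were used. Start sites were those of protein-coding transcripts in GENCODE M21 (basic set), 41433 sites of 21827 genes. Each library alone was reduced to its strongest 43988 peaks, and peaks were paired between lists by summits within 100 bp.

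The members and lists were chosen with earlier results of these data known. All 36 genes were accounted for. The D cyclins were described with their promoter peaks and strongest assigned peaks. Of each list of other cell cycle genes, the 2 with most assigned peaks were named, ties going to the strongest peak. Sequences were those of the strongest promoter peak of the D cyclins, the replication genes and the mitosis genes. That of Mcm7 was passed over for Mcm3, because most of its window is annotated as untranslated. The Cdk1 and strongest Ccnd3 sequences and the GRE were chosen after values were seen. Motifs were searched on both strands. No statistical test was made, since there is 1 group of 2 libraries. The counting code was tested on simulated data with 5000 peaks and gave the known promoter counts for 21827 of 21827 genes. Python 3.11.15, numpy 2.4.6, pandas 2.3.3 and matplotlib 3.10.9 were used.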

Additional observations from a re-analysis of the deposited data

How the results depend on the processing

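Of 111 recomputed values, 96 were within 1.5 times the main value and 15 were not. Values within that limit still varied: 11 of the 36 genes had a promoter peak in the main set and up to 16 over the alternatives, and the replication mean of 0.727 reached 1.09 in replicate 1 alone. The D cyclin mean was above the replication and mitosis means in 11 of 11 settings, the main one included (4.67 to 9.33). Ccnd3 had the most assigned peaks in 12 of 12 alternatives (8 to 18). Of these, the promoter limits of 2 kb and 500 bp cannot change assigned counts. Without Ccnd3, an alternative chosen after seeing the data, the D cyclin mean was 3.5. With only the stronger 50% of the optimal peaks, 5 of the 36 genes kept a promoter peak, 2 of them replication genes and 1 a mitosis gene, and the median per gene was 0. The means were then 4.67 for the D cyclins, 0.364 for replication and 0.5 for mitosis, and peaks over 1 kb away were 12 for the D cyclins and 14 for the other genes. The latter were 23 with the start sites of any GENCODE gene. With promoters of 2 kb, 2 D cyclins had a promoter peak, and with 500 bp, 1 mitosis gene. Each library alone gave 4 mitosis genes with a promoter peak. No paired analysis was possible because there was 1 group. Depth is unknown, so a missing peak is not evidence that EP300 was absent.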
